A study of Mus musculus with 106 samples.

Results

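Transcription factor genes that pattern and maintain the inhibitory interneurons of the forebrain, 8 in all, were followed across immunoprecipitated ribosomes and total RNA of mouse brain: *Dlx1*, *Dlx2*, *Dlx5*, *Dlx6*, *Lhx6*, *Sox6*, *Satb1* and *Nkx2-1*. They were taken by name, by mapping Ensembl identifiers to gene symbols, and all 8 were found among the 55401 mouse genes of the deposited counts. In the embryo, cortical and many striatal interneurons arise in the ganglionic eminences of the ventral forebrain and migrate to their targets, where PV and SST cells form the main classes of medial origin. The DLX homeodomain proteins act throughout the ventral forebrain, including the precursors of striatal projection neurons, with *Dlx1* and *Dlx2* upstream of *Dlx5* and *Dlx6*. In the medial eminence NKX2-1 switches on *Lhx6*, and SOX6 and SATB1 act after LHX6 as the cells mature.

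The mice modelled Huntington disease (HD) with a knock-in expansion of the CAG repeat in *Htt*. HD mice were Hdh Q7/Q200 and control mice were Hdh Q7/Q7, both on a 129S4 background and about 9 months old, and both carried 1 copy of a Cre driver and 1 of RiboTag, an allele of *Rpl22* that puts an HA tag on ribosomes where Cre has acted. An IP library holds mRNA pulled down with tagged ribosomes from a homogenate of the cerebrum or of the cerebellum of 1 hemisphere. Cerebrum here means all of that hemisphere of the brain except the cerebellum and olfactory bulb, which the paper calls a mix of many regions. Total RNA was taken from such a homogenate without pull-down, so that every cell contributes. Cre came from Gad2-IRES-Cre, PV-IRES-Cre or vGluT2-IRES-Cre, and an SST line was also deposited, whose driver the authors' paper does not describe. A driver tags every cell in which it was ever active, so that Gad2 IPs of the cerebrum also hold striatal projection neurons. The Cre line and the cell type cannot be told apart.

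There were 106 libraries from 45 mice, 67 of IP and 39 of total RNA, and the sum of mouse gene counts ran from 21905221 to 107753586 (median 35866725). Control and HD cerebral IPs numbered 6 and 6 for Gad2, 6 and 5 for PV, 5 and 4 for SST, and 6 and 6 for vGluT2, and cerebral total RNA came from 13 control and 12 HD mice of the 4 lines. In the cerebellum there were 6 and 6 Gad2 IPs, 5 and 6 vGluT2 IPs, and 7 and 7 total RNA libraries of these 2 lines. Levels are CPM, counts divided by the library total and scaled by the trimmed mean of M-values (TMM) over all libraries of a region. A gene was called when its Benjamini-Hochberg adjusted p, over all protein-coding genes tested by edgeR, was 0.05 or less.

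Marker genes were checked against the labels first. *Gad1*, *Gad2* and *Slc32a1*, which make and load GABA, summed to a mean of 2541 CPM in Gad2, 2786 in PV, 1356 in SST and 72.8 in vGluT2 IPs of the cerebrum, against 652 in total RNA. *Pvalb* averaged 645 CPM in PV and 154.1 in SST IPs, and *Sst* 98.2 in PV and 1394 in SST IPs. The 4 PV markers summed to 1971 CPM in PV IPs and 453 in total RNA, and the 4 SST markers to 1808 in SST IPs and 299 in total RNA. The Gad2, PV and SST labels matched these markers. The 4 glutamatergic markers, led by *Slc17a7*, summed to 1002 CPM in PV, 1024 in SST, 236 in Gad2 and 2394 in vGluT2 IPs, against 1854 in total RNA. *Slc17a6*, the vGluT2 gene itself, averaged 118 CPM in PV and 110.0 in SST IPs, no lower than the 105 of cerebral vGluT2 IPs, 15.2 in Gad2 IPs and 53.6 in total RNA. All 4 glutamatergic markers were called higher in vGluT2 IPs than in total RNA, by edgeR, while in PV and SST IPs *Slc17a6* alone was called higher and the other 3 lower. The vGluT2 label of the cerebrum was thus met against total RNA, but its own defining gene did not set it apart from PV and SST IPs.

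Other cell types also entered to unequal degrees. The 8 striatal projection neuron markers summed to 4879 CPM in cerebral Gad2 IPs, 351 in PV, 604 in SST and 363 in vGluT2 IPs, against 1122 in total RNA. The 3 cholinergic markers summed to 14.04, 18.0, 19.6 and 5.03 CPM in the same order of IPs and 22.9 in total RNA. SST IPs held the most glial RNA of the 4 kinds of cerebral IP, apart from microglia. Their 4 oligodendrocyte markers summed to 2721 CPM, against 1472 in PV, 614 in Gad2, 358 in vGluT2 IPs and 4343 in total RNA. Astrocyte markers summed to 288 CPM in SST IPs and 694 in total RNA, and microglial markers to 69.2 in SST IPs, 90.2 in Gad2 IPs and 217 in total RNA. In the cerebellum, granule cell markers summed to 2310 CPM in vGluT2 and 492 in Gad2 IPs, and Purkinje cell markers to 138 and 4333.

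Measured against total RNA of the cerebrum, 7 of the 8 genes were higher in Gad2 IPs, where 34.5% of all genes tested were called higher, 7 in PV IPs (37.3% of all genes) and 7 in SST IPs (33.9%). In vGluT2 IPs 7 were lower (33.6% of all genes called lower) and *Satb1* alone was higher (34.8% called higher). The median log2 fold change of the 8 was 1.89 in Gad2, 1.19 in PV, 1.49 in SST and -3.34 in vGluT2 IPs, beside 0.04, -0.01, -0.02 and 0.03 over all genes tested. These comparisons share their 25 total RNA libraries. In the cerebrum 24 mice gave both an IP and a total RNA library, and in the cerebellum 13 did. The main fits of IP against total RNA took all libraries as independent. The genes called higher in all 3 GABAergic IPs were 6, the 4 DLX genes, *Lhx6* and *Sox6*. The share of all genes called higher in all 3 was not counted, so these 6 are not set against a background. *Satb1* was not called in Gad2 IPs and *Nkx2-1* was called in neither PV nor SST IPs, so that neither followed the label of interneuron factors throughout. Fewer cells of a type and less RNA per cell cannot be told apart in such libraries.

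Between kinds of cerebral IP, fitted together, PV differed from Gad2 IPs in 7 genes, 2 of them higher (35.3% of all genes) and 5 lower (30.1%). SST differed from Gad2 IPs in 6, 2 of them higher (31.7%) and 4 lower (32.3%). Only *Sox6* was called between SST and PV IPs, and it was lower in SST (19.2% of all genes called lower). vGluT2 IPs were lower than Gad2 IPs in 7 genes (25.5%) and higher in *Satb1* (19% of all genes called higher).

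**Figure D1:**
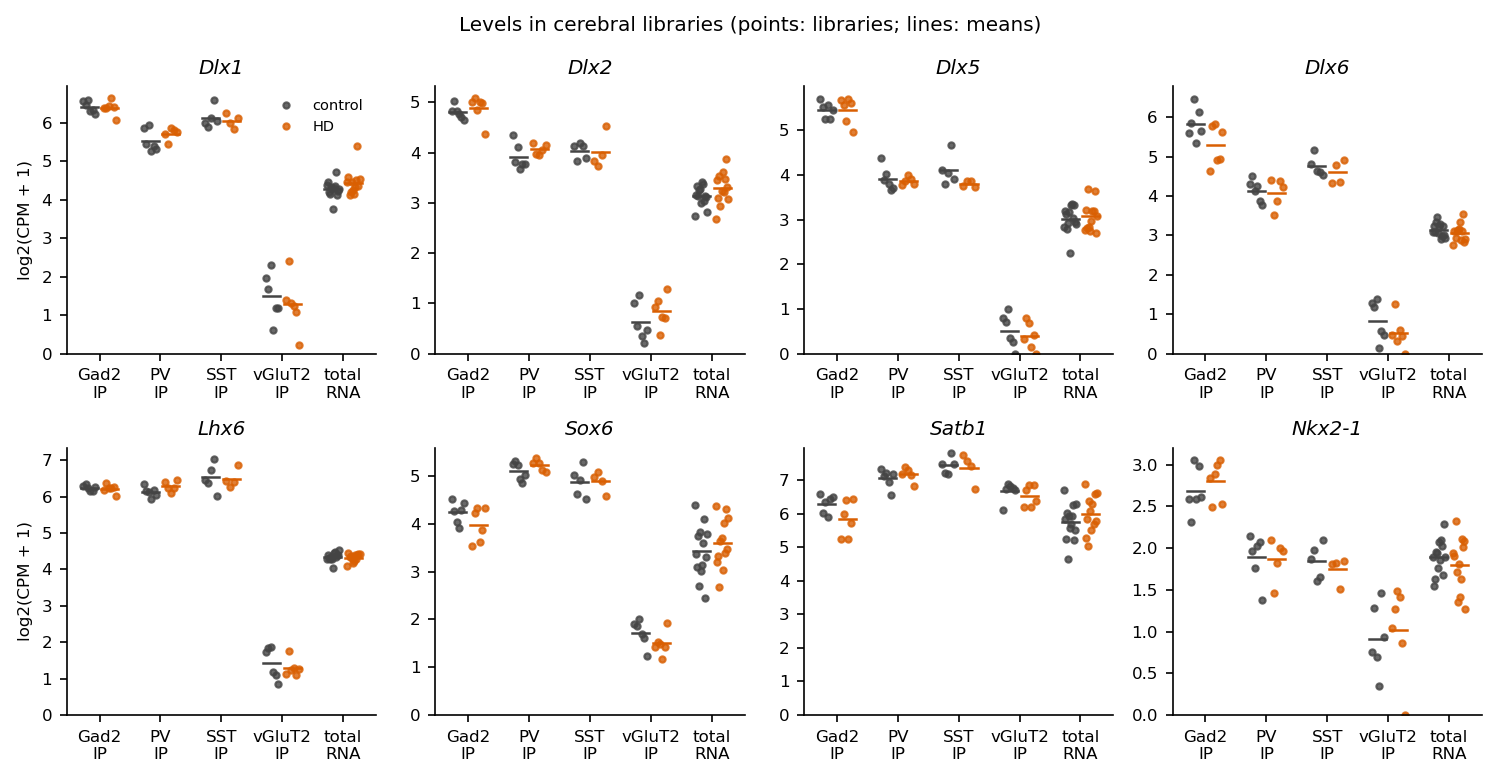
Levels of the 8 genes in cerebral libraries as log2(CPM + 1), by kind of IP and in total RNA, with control and HD apart; points are libraries and lines are means. All genes but *Satb1* are lowest in vGluT2 IPs.

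**Figure D2:**
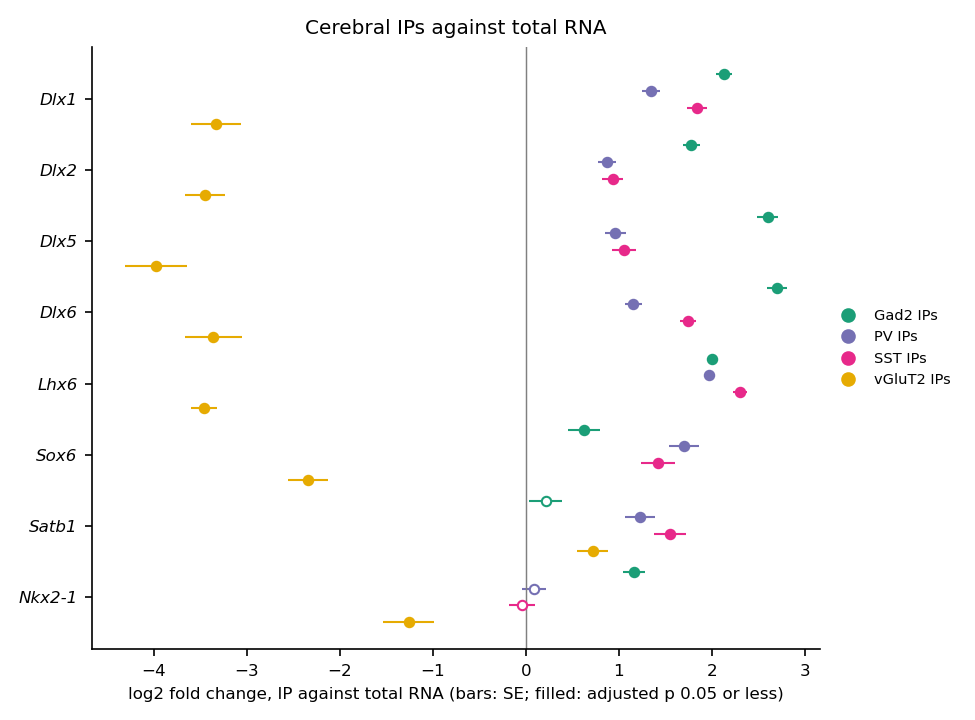
Log2 fold change of each gene in cerebral IPs against 25 total RNA libraries, with bars of 1 standard error (SE); filled points have an adjusted p of 0.05 or less. *Satb1* is the only gene to the right of 0 in vGluT2 IPs.

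*Dlx1* and *Dlx2*, which head the DLX cascade, lie 9426 bases apart on chromosome 2 and are transcribed towards each other (GRCm38.p6: *Dlx1*, ENSMUSG00000041911.3, 71528113 to 71533981 on the plus strand, and *Dlx2*, ENSMUSG00000023391.8, 71543408 to 71546754 on the minus strand). *Dlx1* ran at 66.1 to 98.0 (median 83.4) CPM in the 12 Gad2 IPs, 56.2 to 95.3 (median 64.7) in the 9 SST IPs and 37.1 to 60.3 (median 50.9) in the 11 PV IPs. In the 25 total RNA libraries it ran at 12.4 to 41.2 (median 19.1) CPM and in the 12 vGluT2 IPs at 0.161 to 4.30 (median 1.42). Every Gad2 and SST library was above all total RNA libraries, 8 of 11 PV libraries were, and every vGluT2 library was below them. Against total RNA the log2 fold change was 2.13 ± 0.09 (SE) in Gad2 (adjusted p = 1.6e-21, edgeR), 1.84 ± 0.11 in SST (5.19e-16), 1.34 ± 0.10 in PV (9.06e-15) and -3.33 ± 0.27 in vGluT2 IPs (1.17e-13). PV IPs were lower than Gad2 IPs by edgeR (log2 fold change -0.80 ± 0.21, adjusted p = 0.000972), with no overlap of libraries. SST IPs passed the test against neither Gad2 (log2 fold change -0.38 ± 0.22, edgeR adjusted p = 0.132) nor PV IPs (0.42 ± 0.22, 0.149). The 3 libraries with re in their replicate name, all of HD mice, are taken to be the 3 that failed and were sequenced again, at 150 rather than 100 bases. Without HD vGluT2 IP replicate re1, which shares that fit, *Dlx1* was called in both (log2 fold changes -0.40 and 0.46, edgeR adjusted p = 0.0448 and 0.0405).

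*Dlx2* was also highest in Gad2 IPs, with PV and SST IPs level. It ran at 19.8 to 32.9 (median 27.7) CPM in Gad2, 11.7 to 19.3 (median 14.7) in PV and 12.2 to 22.2 (median 14.6) in SST IPs. Total RNA held 5.39 to 13.7 (median 8.29) CPM and vGluT2 IPs 0.163 to 1.43 (median 0.649). Gad2 libraries stood clear of total RNA and of PV libraries, while 7 of 11 PV and 6 of 9 SST libraries were above all total RNA. Against total RNA its log2 fold change was 1.78 ± 0.09 in Gad2, 0.88 ± 0.10 in PV, 0.93 ± 0.11 in SST and -3.45 ± 0.21 in vGluT2 IPs, with edgeR adjusted p of 6.83e-09 or less. It was lower in PV than in Gad2 IPs (log2 fold change -0.91 ± 0.17) and lower in SST than in Gad2 IPs (-0.92 ± 0.18; edgeR adjusted p = 9.44e-06 and 2.58e-05). SST against PV IPs gave -0.00 ± 0.19. Both calls against Gad2 IPs were lost with the share of counts on long genes, described below, as a covariate (-0.56 and -0.49, edgeR adjusted p = 0.0751 and 0.189).

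Per kilobase of exon, the ratio of *Dlx1* to *Dlx2* in a library averaged 1.82 ± 0.189 (SD) in Gad2, 1.96 ± 0.208 in PV, 2.70 ± 0.552 in SST IPs and 1.46 ± 0.374 in total RNA. The ranges of these ratios overlapped between all 4 kinds of library, with SST the most spread, at 1.85 to 3.46. The antisense gene *Dlx1as* shares 5869 bases with *Dlx1*, its whole length, and ran at 4.65 to 9.86 (median 8.05) CPM in Gad2, 4.26 to 11.0 (median 5.98) in PV and 1.41 to 6.14 (median 2.53) in SST IPs. These shared bases are of the gene spans, introns included, and the overlap of exons was not measured. Libraries were stranded, but whether strand was used in counting is not stated. Reads of the *Dlx1* and *Dlx1as* strands therefore cannot be told apart where the genes overlap. Antisense genes were outside the test, which took protein-coding genes.

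*Dlx1* and *Dlx2* shared their direction against total RNA in every kind of cerebral IP, but only *Dlx2* was called lower in SST than in Gad2 IPs. The promoter windows of this pair are shown, 250 bases before to 50 after the RefSeq start, 5′ to 3′ on the gene's strand, from RefSeq (GRCm38.p6), which held an entry for 6 of the 8 genes. *Dlx1* is chr2:71529195-71529494 (plus), which lies inside the gene as GENCODE starts it, and *Dlx2* is chr2:71546705-71547004 (minus). The homeodomain core TAATTA, searched on both strands, was in neither window and is in 1738 of 32851 promoters of that length, or 5.29%. Capitals mark CACGTG, an E-box motif looked for after the sequences had been seen, which occurs in the *Dlx2* window in 2 places and in 2349 promoters, or 7.15%. A match describes letters and does not show binding.
Dlx1: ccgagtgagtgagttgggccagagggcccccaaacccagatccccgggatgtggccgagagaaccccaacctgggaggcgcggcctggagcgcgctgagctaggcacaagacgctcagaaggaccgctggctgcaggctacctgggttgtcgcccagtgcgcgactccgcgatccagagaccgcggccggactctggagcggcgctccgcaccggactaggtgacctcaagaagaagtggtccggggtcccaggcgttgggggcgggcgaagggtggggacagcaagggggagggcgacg
Dlx2: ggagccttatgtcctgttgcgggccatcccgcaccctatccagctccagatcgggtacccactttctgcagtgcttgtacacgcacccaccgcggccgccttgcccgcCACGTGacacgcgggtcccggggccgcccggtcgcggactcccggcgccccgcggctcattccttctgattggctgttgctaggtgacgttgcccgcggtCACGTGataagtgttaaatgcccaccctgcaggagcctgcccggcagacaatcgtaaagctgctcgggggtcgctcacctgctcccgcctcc

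*Dlx5* and *Dlx6*, the DLX genes that act later in differentiation, lie 9236 bases apart on chromosome 6 (*Dlx6*, ENSMUSG00000029754.13, 6863334 to 6868568 on the plus strand, and *Dlx5*, ENSMUSG00000029755.10, 6877805 to 6882085 on the minus strand). *Dlx5* ran at 30.1 to 51.3 (median 45.5) CPM in Gad2, 11.7 to 19.9 (median 13.6) in PV and 12.2 to 24.7 (median 13.7) in SST IPs. It ran at 3.80 to 11.9 (median 7.22) CPM in total RNA and 0 to 0.983 (median 0.301) in vGluT2 IPs. Gad2 libraries were above every other library of the cerebrum. Its log2 fold change against total RNA was 2.60 ± 0.11 in Gad2 IPs (edgeR adjusted p = 8.44e-22), against 0.96 ± 0.11 in PV and 1.06 ± 0.13 in SST IPs. It was -3.97 ± 0.33 in vGluT2 IPs, the lowest of the 8 genes. PV and SST IPs were below Gad2 IPs by log2 fold changes of -1.66 ± 0.22 and -1.63 ± 0.24 (edgeR adjusted p = 1.35e-08 and 9.79e-08). No other gene of the 8 fell as far from Gad2 to PV or SST IPs.

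*Dlx6* resembled its neighbour but separated SST from PV libraries more. It ran at 23.9 to 88.0 (median 48.9) CPM in Gad2, 19.1 to 35.1 (median 23.9) in SST and 10.6 to 21.7 (median 17.8) in PV IPs. Total RNA held 5.76 to 10.7 (median 7.71) CPM and vGluT2 IPs 0 to 1.61 (median 0.439). Gad2 and SST libraries did not overlap with total RNA, and 7 of 9 SST libraries were above all PV libraries. Against total RNA the log2 fold change was 2.70 ± 0.11 in Gad2, the highest of the 8 genes, 1.74 ± 0.09 in SST, 1.15 ± 0.09 in PV and -3.36 ± 0.31 in vGluT2 IPs (edgeR adjusted p of 3.64e-12 or less). Against Gad2 IPs it was -1.56 ± 0.25 in PV and -1.04 ± 0.26 in SST IPs (edgeR adjusted p = 7e-07 and 0.000659). With the share of long genes as a covariate the SST value was -0.98 and no longer called (adjusted p = 0.058). SST against PV IPs gave 0.52 ± 0.26 (edgeR adjusted p = 0.124), and 0.56 with an adjusted p of 0.0472 without HD vGluT2 IP replicate re1.

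The ratio of *Dlx5* to *Dlx6* per kilobase averaged 1.61 ± 0.819 (SD) in Gad2, 1.36 ± 0.333 in PV, 0.964 ± 0.310 in SST IPs and 1.52 ± 0.371 in total RNA, and its ranges overlapped throughout. *Dlx6os1*, the antisense gene that covers *Dlx6* over 5235 bases, ran at 20.4 to 49.5 (median 31.5) CPM in Gad2, 8.27 to 20.5 (median 13.6) in PV and 7.72 to 13.3 (median 10.4) in SST IPs. As for *Dlx1* and *Dlx1as*, reads of the *Dlx6* and *Dlx6os1* strands cannot be told apart where the gene spans overlap. This limits what the levels of both genes and the ratio of *Dlx5* to *Dlx6* mean. Another transcript of the locus, *Dlx6os2*, had a count in 5 of the 106 libraries.

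*Nkx2-1*, the factor that sets the identity of the medial eminence and is kept in the adult by some striatal interneurons, was the least abundant of the 8 per kilobase in PV and SST IPs and in total RNA (ENSMUSG00000001496.15, chromosome 12, 56531958 to 56536908, minus strand). It ran at 3.96 to 7.30 (median 5.65) CPM in Gad2, 1.59 to 3.42 (median 2.91) in PV and 1.86 to 3.29 (median 2.52) in SST IPs. Total RNA held 1.42 to 3.995 (median 2.72) CPM and vGluT2 IPs 0 to 1.81 (median 0.987). Of the Gad2 libraries 11 of 12 were above all total RNA, and no PV or SST library was. Which cells or regions of the cerebrum gave these levels was not tested. The log2 fold change against total RNA was 1.16 ± 0.12 in Gad2 IPs (edgeR adjusted p = 8.73e-11), 0.09 ± 0.13 in PV (0.556), -0.04 ± 0.14 in SST (0.813) and -1.26 ± 0.28 in vGluT2 IPs (0.000121). With the mouse as a block the last was -1.82, with an adjusted p of 0.0865. PV and SST libraries all lay below Gad2 libraries, at log2 fold changes of -1.08 ± 0.27 and -1.27 ± 0.29 (edgeR adjusted p = 0.000586 and 0.000229). Both calls were lost with the share of long genes as a covariate (-0.91 and -1.04, adjusted p = 0.0713 and 0.0937).

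*Lhx6*, the LIM homeodomain gene that NKX2-1 switches on and that PV and SST cells keep, was far above total RNA in all 3 GABAergic IPs (ENSMUSG00000026890.19, chromosome 2, 36081953 to 36105408, minus strand). It ran at 64.1 to 131 (median 85.7) CPM in SST, 63.4 to 82.3 (median 74.6) in Gad2 and 60.8 to 87.0 (median 72.1) in PV IPs. Total RNA held 15.4 to 22.3 (median 19.3) CPM and vGluT2 IPs 0.810 to 2.69 (median 1.38). Every library of the 3 GABAergic IPs was above, and every vGluT2 library below, all total RNA libraries, which held for *Lhx6* alone among the 8 genes. Relative to total RNA, log2 fold changes were 2.30 ± 0.07 in SST (edgeR adjusted p = 3.76e-24), 1.997 ± 0.05 in Gad2 (1.45e-29), 1.97 ± 0.05 in PV (5.84e-28) and -3.46 ± 0.14 in vGluT2 IPs (7.52e-23). With TMM none of the 3 GABAergic IPs differed from another by edgeR: PV against Gad2 gave -0.04 ± 0.12, SST against Gad2 0.23 ± 0.13 (adjusted p = 0.128) and SST against PV 0.27 ± 0.13 (0.122). SST libraries leaned higher, 7 of 9 being above all Gad2 and 3 above all PV libraries. Whether SST IPs differed in *Lhx6* depended on the scaling. Both comparisons with SST were called by edgeR with DESeq2 size factors (log2 fold changes 0.31 and 0.34, adjusted p = 0.0377 and 0.0445) and without TMM (0.39 and 0.40, 0.0112 and 0.0226), and by DESeq2 itself (0.31 and 0.34, 0.0254 and 0.0273). With TMM edgeR called *Lhx6* in SST against Gad2 IPs without control vGluT2 IP replicate 6 (0.28, adjusted p = 0.0434). It was called in SST against PV IPs without that library (0.33, 0.0399), without control SST IP replicate 6 (0.37, 0.0322) and without HD PV IP replicate 2 (0.36, 0.0401).

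*Sox6*, an HMG-box gene that acts after *Lhx6* and that is also active in oligodendrocyte precursors, was highest in PV and SST IPs (ENSMUSG00000051910.13, chromosome 7, 115470872 to 116038796, minus strand). It ran at 27.9 to 40.9 (median 36.7) CPM in PV, 21.99 to 38.0 (median 29.2) in SST and 10.5 to 21.9 (median 17.9) in Gad2 IPs. Total RNA held 4.49 to 20.2 (median 10.1) CPM and vGluT2 IPs 1.25 to 2.998 (median 1.99). PV and SST libraries were above every Gad2 and total RNA library, and Gad2 libraries overlapped with total RNA, 2 of 12 being above it. The log2 fold change against total RNA was 1.70 ± 0.16 in PV (edgeR adjusted p = 1.08e-11), 1.42 ± 0.18 in SST (3.3e-08), 0.62 ± 0.17 in Gad2 (0.00142) and -2.34 ± 0.21 in vGluT2 IPs (2.15e-12). Against total RNA of the Gad2 line alone the Gad2 value was 0.50, with an adjusted p of 0.0618. Over Gad2 IPs, PV was higher by 1.06 ± 0.12 and SST by 0.71 ± 0.13 on the log2 scale (edgeR adjusted p = 2.85e-10 and 3.78e-06). With the share of long genes as a covariate SST IPs were no longer called against total RNA (0.19, edgeR adjusted p = 0.435) or against Gad2 IPs (0.19, 0.448), while PV IPs kept their call against Gad2 IPs (0.63, 0.00244). The 5 oligodendrocyte precursor markers, led by *Olig1*, summed to 78.3 CPM in PV, 120.3 in SST, 34.7 in Gad2 and 18.5 in vGluT2 IPs and to 345 in total RNA, and their part in the level of *Sox6* was not tested.

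SST against PV IPs gave *Sox6* a log2 fold change of -0.35 ± 0.13 (edgeR adjusted p = 0.0345), with 3 of 9 SST libraries below all PV libraries. DESeq2 gave -0.27 with an adjusted p of 0.0906, and control libraries alone -0.22 with an edgeR adjusted p of 0.385. By edgeR it was also lost with DESeq2 size factors (-0.27, adjusted p = 0.109), without TMM (-0.21, 0.214) and without a filter on low counts (-0.31, 0.0802). The call was also lost on leaving out any 1 of 27 of the 44 cerebral IP libraries of that fit, with log2 fold changes from -0.33 to -0.25 and edgeR adjusted p from 0.0508 to 0.154. These were control replicates 4, 5 and 6 of Gad2, 2, 3, 4, 5 and 6 of PV, 1, 2, 3 and 6 of SST and 1, 4 and 6 of vGluT2 IPs. Among HD IPs they were replicates 1, 2, 3, 5 and 6 of Gad2, 1, 2, 3 and re2 of PV, 4 of SST and 1 and 4 of vGluT2.

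*Satb1*, which codes for a chromatin organizer needed by maturing interneurons and is also active in excitatory neurons and lymphocytes, was the exception among the 8 (ENSMUSG00000023927.15, chromosome 17, 51736187 to 51833290, minus strand). It ran at 106 to 225 (median 178) CPM in SST, 92.6 to 168 (median 146) in PV, 68.2 to 118 (median 104) in vGluT2 and 36.6 to 94.4 (median 72.2) in Gad2 IPs. Total RNA held 24.1 to 118 (median 56.2) CPM. Total RNA overlapped with every kind of IP, though 8 of 9 SST and 9 of 11 PV libraries were above all of it. Relative to total RNA, log2 fold changes were 1.55 ± 0.18 in SST (edgeR adjusted p = 3.44e-09), 1.23 ± 0.16 in PV (1.32e-08), 0.72 ± 0.17 in vGluT2 (0.000238) and 0.21 ± 0.17 in Gad2 IPs (0.281). With the mouse as a block the vGluT2 value was 0.74, with an adjusted p of 0.0562, and with control libraries alone the Gad2 value was 0.53, with an adjusted p of 0.0356. Against Gad2 IPs it was higher in SST (1.25 ± 0.14), PV (1.002 ± 0.13) and vGluT2 IPs (0.48 ± 0.13), with edgeR adjusted p of 1.99e-10, 1.26e-08 and 0.00197. All 4 glutamatergic markers were also called higher than in Gad2 IPs in these 3 comparisons, at median log2 fold changes of 1.96, 1.77 and 3.56, and their part in the level of *Satb1* was not tested. With the share of long genes as a covariate the SST and PV calls were lost against Gad2 IPs (0.20 and 0.16, edgeR adjusted p = 0.307 and 0.347) and against total RNA (0.24 and 0.11, 0.255 and 0.52). Every SST library was above every Gad2 library, while 10 of 11 PV and 8 of 12 vGluT2 libraries were. SST against PV IPs gave 0.24 ± 0.14 (edgeR adjusted p = 0.19), 0.37 with an adjusted p of 0.0448 without HD SST IP replicate 4, and 0.38 with an adjusted p of 0.0456 without TMM.

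Compared with Gad2 IPs, vGluT2 IPs were lower in the other 7 genes, by log2 fold changes from -6.60 for *Dlx5* to -2.44 for *Nkx2-1*, all with no overlap of libraries, as in 695 of the 14678 genes tested (4.73%; edgeR adjusted p of the 7, 3.72e-10 or less). In vGluT2 IPs *Dlx5*, *Dlx6* and *Nkx2-1* were at 0 in at least 1 library each.

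The genes can be ranked within a kind of library only per length of exon, here as CPM per kilobase in control libraries (mean ± SD). In Gad2 IPs the order was *Dlx5* (30.4 ± 3.81), *Dlx6* (26.4 ± 7.92), *Dlx1* (20.5 ± 2.16), *Lhx6* (20.2 ± 1.12), *Dlx2* (10.9 ± 1.03), *Satb1* (6.87 ± 1.24), *Nkx2-1* (1.95 ± 0.447) and *Sox6* (1.94 ± 0.313). Neighbours overlapped among the first 4 and between the last pair, and not elsewhere. In PV IPs *Lhx6* led (18.8 ± 1.79 CPM per kilobase), clear of *Satb1* (11.7 ± 2.10), *Dlx1* (11.2 ± 2.41), *Dlx5* (10.04 ± 2.14), *Dlx6* (7.62 ± 1.53) and *Dlx2* (5.78 ± 1.18), whose neighbours overlapped, and *Sox6* (3.60 ± 0.480) and *Nkx2-1* (0.973 ± 0.236) stood apart below. In SST IPs *Lhx6* (25.4 ± 6.84), *Dlx1* (17.0 ± 3.57), *Satb1* (15.3 ± 2.77), *Dlx6* (11.9 ± 2.36) and *Dlx5* (11.7 ± 3.27) overlapped with their neighbours, above *Dlx2* (6.26 ± 0.732), *Sox6* (3.08 ± 0.687) and *Nkx2-1* (0.919 ± 0.185 CPM per kilobase), each apart. In vGluT2 IPs *Satb1* stood alone at 8.94 ± 1.54 CPM per kilobase, and the 7 others, from *Dlx1* (0.490 ± 0.305) to *Dlx2* (0.239 ± 0.177), overlapped with their neighbours. In total RNA 6 genes from *Lhx6* (5.26 ± 0.463) to *Dlx2* (3.19 ± 0.494) overlapped with their neighbours, and so did *Sox6* (1.12 ± 0.472) and *Nkx2-1* (0.969 ± 0.189) below them.

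The profile over 8 kinds of library (6 of IP and 2 of total RNA) was compared with that of 14758 protein-coding genes by Pearson r of mean log2(CPM + 1) in controls, as a description. Among the 3 profiles most like *Dlx1* were *Lhx6* (r = 0.997) and *Dlx2* (0.995), and among the 3 most like *Lhx6* were *Dlx1* (0.997) and *Crhbp* (0.996). *Dlx5* and *Dlx6* were each other's nearest profile (r = 0.998), and *Dlx5* was nearest to *Dlx2* (0.996). *Dlx5* came next to *Dlx2* and *Sp9* (r = 0.996 and 0.993), and *Dlx6* to *Dlx2* and *Dlx1* (0.994 and 0.991). The 2 genes with lower levels in Gad2 than in PV and SST IPs had other neighbours: *Ptgfr*, *Gli3* and *Adamts5* for *Sox6* (r = 0.972, 0.968 and 0.964) and *Asxl3*, *Nsun7* and *Nexmif* for *Satb1* (0.993, 0.988 and 0.985). For *Nkx2-1* they were *Rgs9*, *Tac1* and *C130060K24Rik* (r = 0.994, 0.992 and 0.990).

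Among 21 other transcription factors of GABAergic forebrain lineages, 12 were higher and 6 lower in Gad2 IPs than in total RNA, 6 and 6 in PV, 13 and 5 in SST, and 2 and 14 in vGluT2 IPs. Beside these, all genes called higher and lower were 5116 and 4956 of 14816 in Gad2, 5561 and 5803 of 14912 in PV, 5057 and 5325 of 14897 in SST, and 5183 and 5002 of 14873 in vGluT2 IPs, about 1 in 3 each way. Their median log2 fold change was 0.54, 0.02, 0.41 and -1.72 in that order. The most abundant in control Gad2 IPs was *Meis2*, a striatal lineage factor (249 CPM ± 33.3, SD), at log2 fold changes of 1.58 ± 0.13 in Gad2, 0.02 ± 0.14 in PV, 0.41 ± 0.14 in SST and 0.27 ± 0.13 in vGluT2 IPs. Of 20 interneuron genes expressed with the 8 factors, 16 were higher and 2 lower in Gad2 IPs, 11 and 8 in PV, 12 and 5 in SST, and 0 and 18 in vGluT2 IPs, by edgeR, against the same shares of all genes. Their median log2 fold change was 1.45, 0.26, 0.79 and -2.01. The most abundant in control Gad2 IPs was *Gad1* (1491 CPM ± 188, SD).

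Levels of *Sox6* and *Satb1* moved with a property of the libraries. Both have long exons, of 9362 and 11491 bases, and the share of protein-coding counts on 2757 other genes with 6000 or more exon bases ran from 10.6% to 20.2% in cerebral total RNA. Across these 25 libraries log2 CPM of *Sox6* rose with that share at Pearson r = 0.88 and Spearman rho = 0.91, and *Satb1* at r = 0.87 and rho = 0.88, each with a permutation p of 1e-05, the smallest that 100000 permutations can give (adjusted p = 4e-05 over 8 genes). Without the 2 libraries farthest from the median share, r was 0.85 and 0.83. Within the Gad2, PV, SST and vGluT2 lines r was 0.997, 0.86, 0.93 and 0.95 for *Sox6* and 0.98, 0.80, 0.90 and 0.98 for *Satb1* (n = 6, 6, 7 and 6).

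The DLX genes gave no such common pattern. *Dlx1* had r = 0.57 and rho = 0.57 (permutation p = 0.00257 and 0.00331, adjusted p = 0.00685 and 0.00883), r = 0.67 without the farthest 2 libraries, and within lines 0.20, 0.29, 0.87 and 0.79. *Dlx2* had r = -0.43 and rho = -0.49 (permutation p = 0.0331 and 0.0146, adjusted p = 0.0662 and 0.0292), r = -0.13 without the farthest 2 libraries, both of the Gad2 line, and within lines -0.97, -0.76, -0.20 and 0.34. For *Dlx5*, *Dlx6*, *Lhx6* and *Nkx2-1* r ran from -0.35 to 0.11 and the adjusted permutation p of r was 0.134 or more. Without the farthest 2 libraries r was 0.17 for *Dlx5*, -0.25 for *Dlx6*, 0.47 for *Lhx6* and -0.03 for *Nkx2-1*. Within the Gad2 and SST lines it was -0.74 and 0.65 for *Dlx5*, -0.47 and -0.77 for *Dlx6*, -0.75 and 0.70 for *Lhx6*, and 0.15 and 0.17 for *Nkx2-1*. Within the PV and vGluT2 lines it was -0.57 and 0.33, -0.16 and 0.26, -0.34 and 0.28, and -0.27 and -0.23 in the same order. Cerebral PV and SST IPs had higher shares (20.2% to 24.0% and 18.6% to 26.8%) than Gad2 and vGluT2 IPs (13.4% to 18.6% and 14.9% to 19.8%). Line and share were therefore confounded, and their parts in the levels of *Sox6* and *Satb1* cannot be told apart. The fits of cerebral IPs with the share as a covariate are given above beside genes that lost a call. In these fits *Dlx1*, *Dlx5* and *Lhx6* kept their calls against total RNA. Against Gad2 IPs *Dlx1* kept its call in PV, and *Dlx5* in PV and SST IPs. Fits with the share were chosen after seeing the data.

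**Figure D3:**
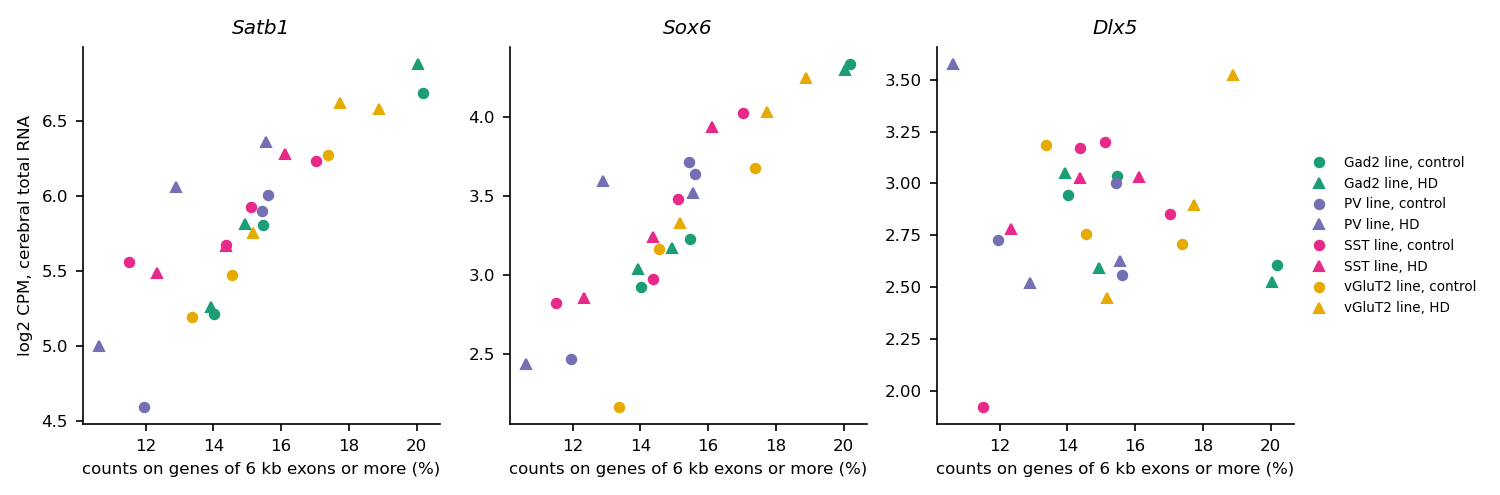
Log2 CPM of *Satb1*, *Sox6* and *Dlx5* in 25 cerebral total RNA libraries against the percent of protein-coding counts on genes with 6000 or more exon bases; colours are lines, circles control and triangles HD mice. *Satb1* and *Sox6* rise with the share (r = 0.87 and 0.88), and *Dlx5* does not (r = -0.01).

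HD against control was then compared within each kind of cerebral library. None of the 8 genes was called in any of them by edgeR. The background was as low: edgeR called 4 of 14342 genes (0.0279%) in Gad2, 5 of 14713 (0.034%) in PV, 0 of 14689 (0%) in SST and 1 of 14354 (0.00697%) in vGluT2 IPs, and 96 of 14880 (0.645%) in total RNA. At an unadjusted p under 0.05 these counts were 1313, 630, 207, 1045 and 1046, with *Dlx6* in Gad2 IPs the only one of the 8. DESeq2 called 75, 42, 2, 25 and 213 genes and none of the 8, though it gave no adjusted p in vGluT2 IPs to the 7 genes other than *Satb1*, whose counts it filtered out as low. The test of whether the HD effect differed between the 4 cell types called 0 of 14678 genes by edgeR (0%, with 203 at an unadjusted p under 0.05, and 2 by DESeq2), and the lowest unadjusted p of the 8 was 0.215, for *Sox6*. The median log2 fold change of the 8 genes was -0.04 in Gad2, 0.11 in PV, -0.06 in SST and -0.27 in vGluT2 IPs and 0.12 in total RNA, beside -0.01, 0.00, 0.01, -0.02 and 0.02 over all genes.

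**Figure D4:**
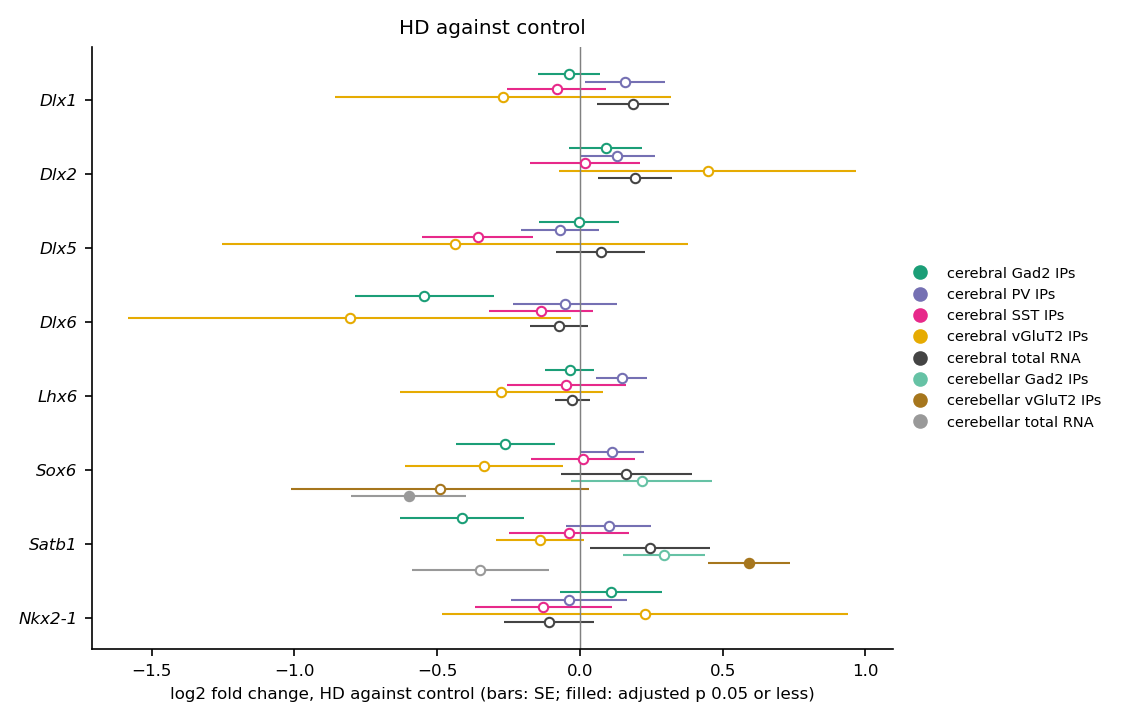
Log2 fold change of HD against control, with bars of 1 SE, for each gene in every kind of library in which it was tested; filled points have an adjusted p of 0.05 or less. The 2 filled points are *Satb1* in cerebellar vGluT2 IPs and *Sox6* in cerebellar total RNA.

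In cerebral Gad2 IPs *Dlx6* had the lowest HD value of the 8. It ran at 39.8 to 88.0 (median 52.9) CPM in 6 control libraries and 23.9 to 55.9 (median 39.4) in 6 HD libraries. HD replicates 3, 5 and 6 lay below all controls and the others within them. Its log2 fold change was -0.54 ± 0.24 (unadjusted p = 0.0426, adjusted p = 0.536, edgeR), so it failed the correction. The overlapping antisense gene *Dlx6os1* ran at 29.4 to 49.5 (median 38.1) CPM in control and 20.4 to 33.7 (median 26.0) in HD Gad2 IPs. Its reads and those of *Dlx6* cannot be told apart here, so these are not separate measurements. *Dlx5*, its neighbour, ran at 37.0 to 51.1 CPM in control and 30.1 to 51.3 in HD libraries, with a log2 fold change of -0.00 ± 0.14.

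*Satb1* and *Sox6* had the next lowest HD values in Gad2 IPs. *Satb1* ran at 59.1 to 94.4 (median 82.5) CPM in control and 36.6 to 85.4 (median 57.7) in HD libraries (log2 fold change -0.41 ± 0.22, edgeR adjusted p = 0.543). *Sox6* ran at 14.1 to 21.9 (median 18.3) and 10.5 to 19.1 (median 15.7) CPM (log2 fold change -0.26 ± 0.17, edgeR adjusted p = 0.559). For each, 3 of 6 HD libraries were below all controls. The other 5 genes had log2 fold changes from -0.04 (*Dlx1*) to 0.11 (*Nkx2-1*), the largest SE being 0.18. Beside these values, the 8 striatal projection neuron markers summed to 5065 to 6510 CPM in control and 2925 to 4723 in HD Gad2 IPs, with no overlap, though none of them was called by edgeR. The share of counts on long genes was 14.7% to 18.6% in control and 13.4% to 18.3% in HD libraries. The part of either in the HD values of *Dlx6*, *Satb1* and *Sox6* was not tested.

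In PV IPs the HD values of the 8 genes ran from -0.07 (*Dlx5*) to 0.16 (*Dlx1*) on the log2 scale, with SE up to 0.20. *Lhx6*, with the smallest SE, was at 0.15 ± 0.09, from 60.8 to 80.3 CPM in control and 67.1 to 87.0 in HD libraries. In SST IPs they ran from -0.36 (*Dlx5*) to 0.02 (*Dlx2*). *Dlx5* there was 12.8, 16.4, 15.6, 24.7 and 14.1 CPM in the control libraries and 12.4, 13.5, 13.7 and 12.2 in the HD libraries, a log2 fold change of -0.36 ± 0.19 (unadjusted p = 0.0892, edgeR). HD libraries lay at the low end of the controls, and 2 of 4 were below all of them.

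In vGluT2 IPs, where 7 of the 8 genes were near 0, HD values ran from -0.81 ± 0.78 (*Dlx6*) to 0.45 ± 0.52 (*Dlx2*). The SE of these 7 ran from 0.28 (*Sox6*) to 0.82 (*Dlx5*), so that a change of them was poorly measured. Why the SE were wide was not tested. *Satb1*, the abundant one, was at -0.14 ± 0.15, from 68.2 to 118 CPM in control and 73.1 to 115 in HD libraries. In cerebral total RNA, with the line as a covariate, the 8 ran from -0.11 (*Nkx2-1*) to 0.25 (*Satb1*). The most precise of them, *Lhx6*, was at -0.03 ± 0.06.

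For HD in the cerebral IPs, edgeR called 0 of 21 lineage factors in Gad2 IPs and 0 of the 20, 20 and 18 tested in PV, SST and vGluT2 IPs. It called none of the 20 interneuron genes either (19 tested in vGluT2 IPs). As few genes of any kind were called there, this does not show that the lists were unchanged. The paper, by DESeq2, reports *Vip*, one of these interneuron genes, as lower in HD in cerebral Gad2 neurons. DESeq2 calls of both lists were not counted here. In cerebral total RNA 5 of the 8 striatal projection neuron markers fell, by log2 fold changes of -0.80 ± 0.15 (*Penk*), -0.76 ± 0.15 (*Adora2a*), -0.59 ± 0.14 (*Pde10a*), -0.53 ± 0.12 (*Rgs9*) and -0.52 ± 0.11 (*Drd2*). None of the 8 interneuron factors was called in those libraries.

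In the cerebellum, which has interneurons of another origin, 6 of the 8 genes were at or near 0. The highest count in any of the 37 libraries was 19 for *Dlx1*, 13 for *Lhx6*, 6 for *Dlx2*, 4 for *Dlx5*, and 1 for *Dlx6* and *Nkx2-1*, and none of these passed the filter of a mean count over 10. Lower levels could not be seen at this depth. *Sox6* and *Satb1* were measured throughout and were tested. Against total RNA *Sox6* was lower in Gad2 IPs, where 32.6% of all genes were called lower, and in vGluT2 IPs (36% called lower), and *Satb1* was called in neither.

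*Sox6* ran at 5.73 to 15.7 (median 10.2) CPM in 14 cerebellar total RNA libraries, 1.45 to 3.54 (median 2.18) in 12 Gad2 and 0.199 to 4.48 (median 1.55) in 11 vGluT2 IPs. All IPs were below all total RNA. The log2 fold change was -2.08 ± 0.17 in Gad2 and -2.60 ± 0.29 in vGluT2 IPs (edgeR adjusted p = 7.9e-12 and 1.38e-08). Oligodendrocyte precursor markers, beside it, summed to 166 CPM in total RNA and 41.2 and 17.4 in the IPs. *Satb1* ran at 20.04 to 58.7 (median 32.6) CPM in total RNA, 22.8 to 42.3 (median 32.5) in Gad2 and 25.7 to 55.2 (median 30.8) in vGluT2 IPs, all overlapping, with log2 fold changes of -0.04 ± 0.14 and -0.00 ± 0.17. With control libraries alone *Satb1* was called lower in both (-0.39 and -0.48, edgeR adjusted p = 0.0405 and 0.0222), and with the share of long genes as a covariate in vGluT2 IPs (-0.34, 0.00549).

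In cerebellar vGluT2 IPs, which draw on granule cells, *Satb1* rose in HD, where edgeR called 285 of 13487 genes (2.11%). It was at 28.6, 33.6, 27.7, 27.0 and 25.7 CPM in the 5 control libraries and 44.9, 48.5, 55.2, 30.8, 48.1 and 28.5 in the 6 HD libraries. Replicates 1, 2, 3 and 5 of HD were above all controls and replicates 4 and 6 among them. The log2 fold change was 0.59 ± 0.14 (edgeR adjusted p = 0.0489, and 0.59 with an adjusted p of 0.00749 by DESeq2, which called 663 genes, or 4.92%). The call stood close to its threshold. It was lost on leaving out any 1 of control replicates 1 to 5 or HD replicates 1, 2, 3 or 5 (log2 fold changes 0.53 to 0.64, edgeR adjusted p = 0.0729 to 0.114), and was kept without HD replicate 4 or 6 (0.66 and 0.68). With DESeq2 size factors the adjusted p was 0.0543, and with *Xist* as a covariate 0.111. *Sox6* ran at 1.25, 4.48, 0.947, 1.69 and 1.71 CPM in control and 0.926, 2.24, 2.89, 0.644, 1.55 and 0.199 in HD libraries, which overlapped, and passed no test (log2 fold change -0.49 ± 0.52).

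Sums of markers overlapped between genotypes in these IPs and were not tested. Granule cell markers summed to 2195 to 2989 CPM in control and 1356 to 2694 in HD libraries, GABAergic markers to 134 to 251 and 72.2 to 296, and the share of counts on long genes was 17.5% to 21.8% and 18.0% to 23.0%. With that share as a covariate *Satb1* kept its call (log2 fold change 0.55, edgeR adjusted p = 0.0216). Of the lists, only *Ppp1r1b*, a phosphoprotein of dopamine signalling, was called there (-0.62 ± 0.12).

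In cerebellar Gad2 IPs neither gene was called by edgeR, which called 2 of 14098 genes (0.0142%; 324 at an unadjusted p under 0.05, and 22 by DESeq2). *Satb1* ran at 22.8 to 32.8 (median 29.7) CPM in control and 22.9 to 42.3 (median 38.1) in HD libraries, and 5 of 6 HD libraries were above all controls (log2 fold change 0.29 ± 0.14, unadjusted p = 0.0578, edgeR). *Sox6* ran at 1.45 to 3.32 and 1.73 to 3.54 CPM (log2 fold change 0.22 ± 0.25). Whether the HD effect on *Satb1* differed between the 2 cerebellar cell types was not tested.

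In cerebellar total RNA, with the line as a covariate, *Sox6* fell in HD, in a comparison where edgeR called 3544 of 14477 genes (24.5%). The 2 lines gave unlike values. In the vGluT2 line *Sox6* was at 15.7, 11.7, 13.3 and 14.2 CPM in control and 5.73, 7.25, 7.60 and 8.71 in HD libraries, with no overlap. In the Gad2 line it was at 12.1, 14.9 and 8.53 and 8.22, 6.98 and 15.3 CPM, where the highest library was of HD. The pooled log2 fold change was -0.60 ± 0.20 (edgeR adjusted p = 0.0449), and in fits of each line alone, chosen after seeing the data, it was -0.89 in the vGluT2 line (0.00162), where edgeR called 7565 of 14630 genes (51.7%). In the Gad2 line it was -0.22 and not called, where edgeR called 0 of 14226 genes, with 316 at an unadjusted p under 0.05. The pooled call was kept only without control Gad2 replicate 1 (-0.64, edgeR adjusted p = 0.0362), control Gad2 replicate 3 (-0.71, 0.0175) or HD Gad2 replicate 3 (-0.79, 0.0017). Without any 1 of the 11 others, namely control Gad2 replicate 2, HD Gad2 replicates 1 and 2, and replicates 1 to 4 of control and of HD vGluT2, it was lost (-0.62 to -0.52, adjusted p 0.0666 to 0.092).

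*Satb1* in the same total RNA was at 51.5, 44.0, 34.7 and 44.6 CPM in control and 20.04, 27.8, 21.7 and 30.4 in HD libraries of the vGluT2 line, with no overlap. In the Gad2 line it was at 26.9, 51.7 and 25.8 and 36.8, 27.9 and 58.7 CPM. The pooled log2 fold change was -0.35 ± 0.24 (edgeR adjusted p = 0.26), and it was called without HD Gad2 replicate 3 (-0.53, 0.0372) and in the vGluT2 line alone (-0.80, 0.00384), in the fit that called 51.7% of all genes. In the Gad2 line alone it was 0.24 and not called.

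The share of counts on long genes moved with these values. In vGluT2-line total RNA it was 20.34% to 20.98% in control and 13.8% to 15.3% in HD libraries, so that it separated the genotypes and no correlation was taken. In the Gad2 line it was 16.8% to 21.96% and 15.3% to 21.2%. With the share as a covariate the pooled value of *Sox6* was -0.05 and that of *Satb1* 0.42, neither called, and the number of genes called by edgeR went from 3544 to 40. In the vGluT2 line the share and the genotype cannot be told apart. Among genes of the lists that changed in the same libraries were *Aqp4* (-1.02 ± 0.30), *Gad2* (-1.001 ± 0.23), *Zeb2* (-0.92 ± 0.30), *Pde10a* (-0.61 ± 0.21), *Calb1* (-0.56 ± 0.15) and *Gad1* (-0.35 ± 0.12), all lower. *Calb2* (1.15 ± 0.18), *Adora2a* (0.74 ± 0.17), *Tmem119* (0.66 ± 0.15), *Slc17a7* (0.57 ± 0.18), *Csf1r* (0.51 ± 0.14), *Cspg4* (0.48 ± 0.13) and *Olig1* (0.48 ± 0.16) were higher. Most markers of these lists were not called. The calls were 1 of 4 astrocyte, 1 of 4 oligodendrocyte (lower) and 2 of 5 oligodendrocyte precursor markers. They were 2 of 4 microglial, 1 of 4 glutamatergic and 2 of 8 striatal projection neuron markers. They were 2 of 3 GABAergic and 1 of 2 Purkinje cell markers, 1 of 15 lineage factors and 3 of 17 interneuron genes tested. Their part in the values of *Sox6* and *Satb1* was not tested.

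*Satb1* thus had HD effects of opposite sign in vGluT2 IPs and in total RNA of the same cerebellar line. A test of that difference, added because the opposite signs had been seen and so no independent evidence of them, called 4066 of 14230 genes by edgeR (28.6%). For *Satb1* the IP effect exceeded the total RNA effect by 1.38 ± 0.23 on the log2 scale (edgeR adjusted p = 0.000171), with all 4 HD total RNA libraries below and 4 of 6 HD IPs above their controls. The libraries came from 12 mice, 7 of which gave both an IP and a total RNA library and were taken as independent in that test. With these 7 alone and the mouse as a block the difference was 1.37 ± 0.29 (edgeR adjusted p = 0.0138). With the share of long genes as a covariate the difference was 0.92 (adjusted p = 0.101), and 800 genes were called. For *Sox6* it was 0.40 ± 0.66 and not called.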

How the data were processed

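The authors aligned reads with STAR and quantified them with Salmon through nf-core/rnaseq 3.0, and deposited an estimated count per gene (GRCm38.p6). Of these values 8.57% were not whole and were rounded. Gene types, positions and exon lengths came from GENCODE M21, which held 55141 of 55401 genes, and promoters from RefSeq. Protein-coding genes averaging more than 10 counts over a comparison were fitted in R 4.3.3 by edgeR 4.0.16, with TMM, a prior count of 2 and its quasi-likelihood test. HD against control used the IPs of a cell type alone, or all total RNA of a region with the line as a covariate. IP against total RNA, and IP against IP, had genotype as a covariate. SE is the log2 fold change over the root of F. Tables were made with pandas 2.3.3, numpy 2.4.6 and Python 3.11.15, and figures with matplotlib 3.10.9. Models were also run on simulated data, whose outcome is not given here.

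Named are the 8 factors, their antisense genes and genes among the 3 nearest profiles, and, of lists of 21 lineage factors, 20 interneuron genes and 12 marker lists, the most abundant in control Gad2 IPs for the first pair and genes called in HD, not all of which are reported here. Members and lists were chosen with earlier results of these data known. Alternatives were DESeq2 1.42.0, its size factors, no or another filter, no TMM, *Xist*, mouse, replicate or long-gene share as a term, other libraries, and leaving out each library.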

Additional observations from a re-analysis of the deposited data

Results flagged for a closer look

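Single libraries stood far from the others of their group in 7 of 84 groups and genes tested by Dixon's gap, which arises by chance in about 1 in 20 groups. HD vGluT2 cerebral IP replicate 2 was highest for *Dlx1* (4.30 CPM, the next being 1.64), *Dlx6* (1.41, next 0.514) and *Lhx6* (2.39, next 1.45), and these 3 values come from 1 library. *Nkx2-1* was low in HD SST cerebral IP replicate 3 (1.86 CPM, next 2.49). *Satb1* was low in HD Gad2 cerebellar IP replicate 4 (22.9 CPM, next 36.3) and in control vGluT2 cerebral IP replicate 1 (68.2, next 104). *Sox6* was high in control vGluT2 cerebellar IP replicate 2 (4.48 CPM, next 1.71).

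Between groups, the HD effect on *Satb1* differed between IPs and total RNA of the cerebellar vGluT2 line by 1.38 on the log2 scale, in a test added because the opposite signs had been seen. With the share of long genes as a covariate it was 0.92 and not called (edgeR adjusted p = 0.101), and share and genotype cannot be told apart in the total RNA of that line. *Nkx2-1* was higher in every HD than in every control total RNA library of the Gad2 line of the cerebrum (log2 ratio of means 0.51), and lower in every HD library than the control mean of the PV line (-0.35). These effects differ by 0.86, and this difference was not tested. It is 1 of 52 pairs of groups compared.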

How the results depend on the processing

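Of 3322 values of 124 results for single genes under alternatives, 3225 kept their side of the threshold, 73 lost and 21 gained a call, and 3 took the other sign of a value lying more than 1 SE from 0. Among the 3225 were 112 that took the other sign of a value within 1 SE of 0, with no call in either fit. The count of called genes among the 8 was 0 in each cerebral HD comparison under every alternative run.

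The call of *Satb1* in HD cerebellar vGluT2 IPs went from 1 gene to 0 with DESeq2 size factors, to 0 with *Xist* as a covariate and to 0 with the replicate number as a block (log2 fold change 0.66, adjusted p = 0.058). Whether replicate numbers pair control with HD libraries is not clear. Correlations of pairs ran from -0.04 to 0.41 in these IPs, where 1 of 5 pairs was a mutual best match. In cerebral Gad2 IPs they ran from -0.29 to 0.50, with 3 of 6. The blocked fit is shown only here, and the loss of the call in it stands beside the others. Leaving out 1 library gave 0 to 1. In cerebellar total RNA the count of 1 became 0 without a filter, 0 with the long-gene share as a covariate, 0 in the Gad2 line and 2 in the vGluT2 line, and 0 to 2 on leaving out 1 library. *Satb1* there reversed to 0.42 with the share and to 0.24 in the Gad2 line, and in cerebral total RNA to -0.0061 in the SST line.

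For IPs against total RNA, the cerebellar Gad2 count of 1 became 3 without a filter, with *Dlx2* and *Lhx6*, whose counts there are at or near 0, and 2 with controls only, with *Satb1*. All genes called went from 67.4% to 58.9% and 57.1%. The vGluT2 count of 1 became 2 without a filter, with *Dlx2*, and with *Satb1* 2 with controls only and 2 with the share, while all genes went from 68.3% to 61.5%, 56.7% and 71.1%. With the share, PV against Gad2 IPs went from 7 to 4 (all genes from 65.4% to 50.7%) and SST against Gad2 IPs from 6 to 1 (from 64% to 47.5%). The last rose to 7, with *Lhx6*, by DESeq2, with its size factors and without TMM. SST against PV IPs went from 1 to 0 without a filter, 2 without TMM, where *Sox6* was lost and *Lhx6* and *Satb1* were gained, and 0 with controls only. By DESeq2 and with its size factors it stayed at 1, with *Lhx6* in place of *Sox6*. All genes called there were 32.9% in the main fit, 24.9% without a filter, 33.7% without TMM and 17.7% with controls only. Leaving out 1 library gave 0 to 3 there and 6 to 7 for SST against Gad2 IPs. The difference between IPs and total RNA of the cerebellar vGluT2 line went from 1 to 0 with the share. The causes were not tested, except that single lines hold fewer libraries. Counts were few for 7 genes in the cerebral vGluT2 IPs and for the 6 genes under the filter in the cerebellum. The part of depth in their values was not tested. The share, the single lines, the mouse block of the IP to total RNA difference and that difference itself were chosen after seeing the data.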
